A study of Mus musculus with 6 samples.

Results

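Class 3 semaphorins are secreted guidance proteins, neuropilins are the surface receptors that bind most of them, and plexin-A proteins are the partners that carry the signal into the cell. All probe sets annotated with exactly 1 of the symbols Sema3a, Sema3c, Sema3d, Sema3e, Sema3f, Nrp1, Nrp2, Plxna1, Plxna2 and Plxna4 were taken, which gave 30 of the 45037 probe sets tested. Of these, 14 read the 5 ligand genes, 8 the 2 neuropilin genes and 8 the 3 plexin-A genes. The arrays held cRNA from Lmx1b -/- hindlimb buds (3 pools) and from wild-type hindlimb buds (3 pools), all of strain 129Sv at E11.5. For each pool the proximal 500 µm or so of 6 buds from 3 embryos was combined. The labels do not say what kind of Lmx1b allele was used. The comparison asks which of these guidance genes depend on LMX1B, the LIM homeodomain factor that gives limb mesenchyme its dorsal character.

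A plexin alone binds most class 3 semaphorins poorly, and a neuropilin in the same membrane completes the receptor. Nrp1 is best known for responding to SEMA3A and Nrp2 for responding to SEMA3F, and the protein SEMA3E is the exception that binds plexin-D1 directly. In the limb these cues act on motor and sensory axons, whose growth cones collapse or turn away from them, and the neuropilins also bind VEGF on blood vessels. Bulk tissue was measured, so fewer cells of a type and less RNA per cell cannot be told apart.

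Values are log2 RMA values per probe set, a scale on which a difference of 1 is a 2-fold difference. A change is the null mean minus the wild-type mean, given with its standard error (SE) or its 95% interval from a limma fit over all probe sets. A probe set was called when its Benjamini-Hochberg adjusted p, over all 45037, was under 0.05. The brightness of different probe sets depends on their probes, so levels are compared between pools and not between genes. The brighter of the Lmx1b probe sets averaged 4.47 ± 0.21 in null pools and 7.93 ± 0.31 in wild-type pools (SD, n = 3 each), so the transcript was low in the pools labelled null, while the other Lmx1b probe set was dim in both (3.92 in null and 3.93 in wild-type pools). All 9 limb mesenchyme markers looked at, Prrx1 (11.1 in null and 11.2 in wild-type pools) and Tbx4 (10.2 and 10.5) among them, lay above the lower quartile of the arrays, which was 3.31 to 3.36. Of these 9, 5 were lower and 4 higher in sign in null pools, and 0 were called. An unadjusted limma p under 0.05 was found for 2 of them, Tbx4 (-0.29) and Twist1 (0.14), against 9.80% of all genes. The female-specific transcript Xist read 9.66, 9.16 and 10.8 in null pools 1 to 3, and 4.68, 9.88 and 4.72 in wild-type pools 1 to 3, so it was high in all null pools and in 1 wild-type pool.

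Among all 30 probe sets, the 4 of Nrp2 and the brighter of Sema3d were lower in null pools, by 1.50-fold to 1.82-fold, and no other member stood clearly apart. The call covered 2 of the 30, Nrp2 1447343_at and Sema3d 1429459_at, both lower in null pools, against 0.0844% of all probe sets called in either direction. An unadjusted p under 0.05 was found for 5 of the 30, the 4 of Nrp2 and Sema3d 1429459_at, against 9.41% of all probe sets. All 3 null pools lay below all 3 wild-type pools in 6 member probe sets (5.78% of all probe sets) and above them in 2 (8.62% of all probe sets), while 22 overlapped. Of the 6, 4 were the probe sets of the single gene Nrp2, and without Nrp2 the count was 2 of 26. The median change was -0.05 over the members and 0.01 over all probe sets.

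The 250 bases before the annotated RefSeq start of Nrp2 and Sema3d, the members with calls, and of Nrp1, the neuropilin with none, are shown with every TAAT, the core that homeodomain proteins bind, in capitals on either strand (ATTA is the same site read from the other strand). They lie on the plus strand of GRCm38.p6 at chr1:62703067-62703316, chr5:12382916-12383165 and chr8:128358823-128359072.
Nrp2: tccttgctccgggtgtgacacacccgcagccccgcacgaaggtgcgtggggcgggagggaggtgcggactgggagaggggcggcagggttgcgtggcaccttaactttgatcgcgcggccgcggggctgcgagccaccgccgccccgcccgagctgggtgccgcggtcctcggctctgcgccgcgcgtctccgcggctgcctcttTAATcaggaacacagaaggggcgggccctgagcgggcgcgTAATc
Sema3d: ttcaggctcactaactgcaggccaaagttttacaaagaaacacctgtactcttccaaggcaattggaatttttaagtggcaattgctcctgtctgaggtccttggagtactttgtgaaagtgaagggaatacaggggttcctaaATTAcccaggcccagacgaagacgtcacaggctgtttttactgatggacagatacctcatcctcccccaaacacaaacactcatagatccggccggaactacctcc
Nrp1: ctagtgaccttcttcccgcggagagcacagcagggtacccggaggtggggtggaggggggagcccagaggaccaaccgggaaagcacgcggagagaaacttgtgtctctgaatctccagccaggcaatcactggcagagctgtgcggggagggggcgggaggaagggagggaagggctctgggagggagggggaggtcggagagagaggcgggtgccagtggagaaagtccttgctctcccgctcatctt

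The window of Nrp2 held 2 such cores, that of Sema3d 1 and that of Nrp1 0. The windows of members with no call held as many, 2 each for Plxna2 and Sema3e and 1 each for Sema3a and Sema3c, and 54.9% of the 32851 RefSeq windows of this length held at least 1. The longer palindrome TAATTA, which contains that core on both strands and is a known target of LIM homeodomain factors, was in none of the 7 member windows listed (Nrp2, Plxna2, Sema3d, Sema3a, Sema3e, Sema3c and Nrp1) and in 4.84% of all windows. Which start these limb cells use was not measured. The G and C content was 72.4% for Nrp2, 46.8% for Sema3d and 64.4% for Nrp1.

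Sema3d, a secreted semaphorin known from neural crest, heart and vessel patterning, was the ligand gene that fell. Its probe set 1429459_at read 5.08, 5.17 and 5.22 in null pools 1 to 3, against 5.69, 5.77 and 5.75 in wild-type pools 1 to 3. The lowest wild-type pool stood 0.47 above the highest null pool, a gap several times the range within either group (0.13 in null and 0.08 in wild-type pools). The means were 5.16 ± 0.07 in null and 5.74 ± 0.04 in wild-type pools, a change of -0.58 (SE 0.07, 95% interval -0.73 to -0.43; limma adjusted p = 0.0382). The second Sema3d probe set, 1453148_at, was dimmer at 4.01 in null and 4.05 in wild-type pools and gave a change of -0.04 (95% interval -0.25 to 0.18), with overlapping pools. Both probe sets are annotated to the same transcript accession, and which part of the transcript each one reads is not known here. The fall of Sema3d rests on 1 probe set of moderate brightness, and the call did not survive the loss of any pool (limma adjusted p = 0.0599 to 0.201 with 1 pool left out), although the change stayed between -0.61 and -0.54.

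Sema3a, the founding repellent of motor and sensory axons, was measured by 3 probe sets with changes of -0.13, -0.26 and -0.12, none called (limma adjusted p = 0.664 to 0.747). Its brightest, 1420416_at, read 7.31, 7.46 and 7.56 in null pools against 7.65, 7.57 and 7.50 in wild-type pools. The groups overlapped, because null pool 3 lay above wild-type pool 3. The 95% interval of that change ran from -0.32 to 0.06, so a change as large as that of Sema3d lay outside it, but the wider interval of the dim probe set 1420417_at, from -0.75 to 0.24, held it.

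Sema3c, which guides neural crest into the cardiac outflow tract, gave -0.23 in its bright probe set 1429348_at and -0.09 in its dim one. The bright probe set read 7.10, 6.90 and 7.12 in null pools against 6.94, 7.44 and 7.44 in wild-type pools. Wild-type pool 1 lay among the null pools, and without it the change was -0.40 (limma adjusted p = 0.278). The dim probe set 1420696_at had non-overlapping pools, but by only 0.02 (4.74 to 4.79 in null and 4.81 to 4.89 in wild-type pools).

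Sema3f, the ligand best known for acting through Nrp2, was bright in all 3 of its probe sets and not called in any. The largest change, -0.21 in 1425840_a_at (95% interval -0.43 to 0.02; limma adjusted p = 0.561), came from 8.32, 8.38 and 8.26 in null pools against 8.35, 8.52 and 8.72 in wild-type pools. Probe sets 1420508_at and 1438947_x_at gave -0.08 and 0.06. Probe set 1438947_x_at, the brightest and the only Sema3f probe set with a change above 0, carries the suffix of probe sets that may bind more than 1 transcript.

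Sema3e, the plexin-D1 ligand, lay near the floor of the arrays. In 3 of its 4 probe sets every pool read between 2.36 and 2.95, under the lower quartile of the arrays, and probe set 1427673_a_at read 3.67 to 3.76 in null and 3.53 to 3.80 in wild-type pools. Changes ran from -0.06 to 0.06. At this brightness RMA compresses differences, so a change of Sema3e may not be seen at this level.

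**Figure D1:**
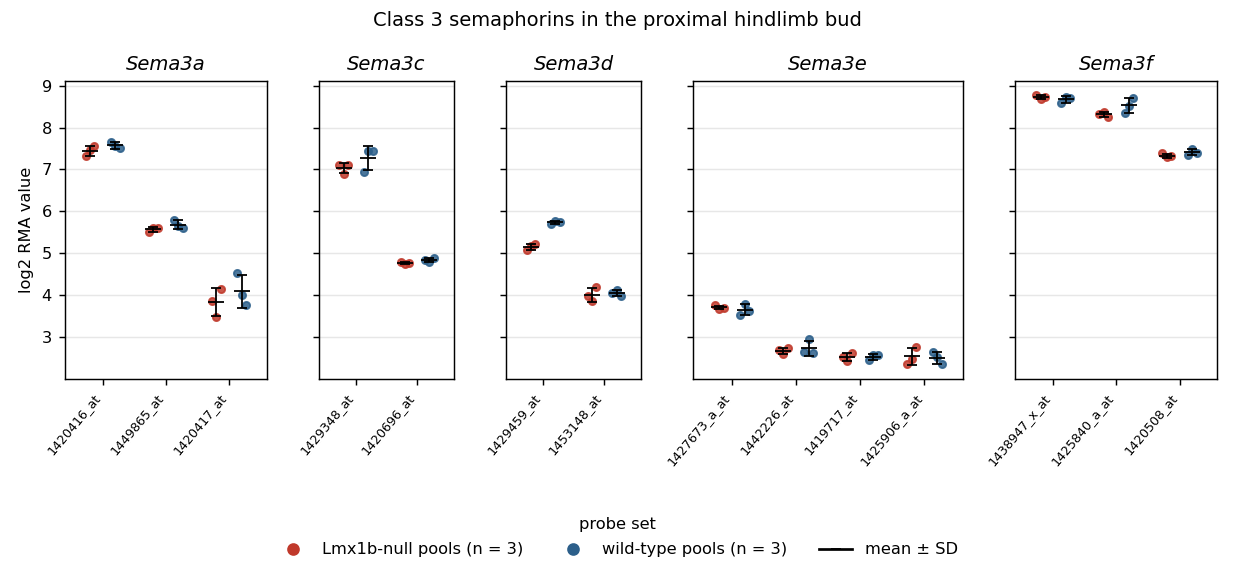
Log2 RMA values of the 14 probe sets of the class 3 semaphorin genes, ordered by brightness within each gene, with every pool as a point (Lmx1b-null left, wild-type right; n = 3 each) and the mean with SD in black. The groups are clearly apart in Sema3d 1429459_at, at 5.08 to 5.22 in null and 5.69 to 5.77 in wild-type pools, and Sema3e lies at the bottom of the scale.

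Nrp2, the neuropilin that joins plexin-A proteins in receptors for SEMA3F and SEMA3C, was lower in null pools in every probe set. Probe set 1447343_at read 5.89, 5.88 and 5.62 in null pools 1 to 3, against 6.59, 6.75 and 6.65 in wild-type pools 1 to 3. The lowest wild-type pool stood 0.70 above the highest null pool. The means were 5.80 ± 0.15 in null and 6.66 ± 0.08 in wild-type pools, a 1.82-fold difference (change -0.87, SE 0.09, 95% interval -1.08 to -0.66; limma adjusted p = 0.024).

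The other three Nrp2 probe sets were brighter, showed changes of like size and missed the threshold. Probe set 1456778_at read 7.63, 7.73 and 7.56 in null pools against 8.20, 8.56 and 8.71 in wild-type pools (change -0.85, SE 0.13; limma adjusted p = 0.0849). Probe set 1435349_at, the brightest, read 8.68, 8.87 and 8.77 in null pools against 9.29, 9.46 and 9.73 in wild-type pools (change -0.72, SE 0.11; adjusted p = 0.1). Probe set 1426528_at read 7.90, 7.95 and 7.97 in null pools against 8.38, 8.68 and 8.79 in wild-type pools (change -0.68, SE 0.11; adjusted p = 0.0919). In all 4 the null pools lay below every wild-type pool, and the 95% intervals of the 4 changes, from -1.14 to -0.44 in all, overlap. In the 3 brighter ones the null pools spanned 0.07 to 0.19 and the wild-type pools 0.41 to 0.51 from lowest to highest, with wild-type pool 1 the lowest in each. Without wild-type pool 1, 1456778_at and 1426528_at were called (limma adjusted p = 0.0155 and 0.0235) and 1447343_at and 1435349_at were not (0.0504 and 0.0605).

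Without any other pool, 0 of the 4 Nrp2 probe sets was called by limma, although the changes stayed between -0.59 and -0.92. With an intensity trend in the variance model all 4 were called (limma adjusted p = 0.0137 to 0.0372), and with array weights 3. In the fit with 1 probe set per gene, where 0.104% of 18193 genes were called, Nrp2 missed the threshold (adjusted p = 0.0922) and Sema3d passed it (0.0282). Wild-type pool 2, the wild-type pool with a high Xist level, read 9.46 in Nrp2 1435349_at, against 8.68 to 8.87 in null pools. In Sema3d 1429459_at it read 5.77, against 5.08 to 5.22 in null pools. The labels do not give the sex of the embryos. Only this 1 wild-type pool had a high Xist level, so parts of sex and genotype in these changes cannot be told apart. With the Xist level in the fit, an alternative chosen after seeing the data, the Nrp2 changes were -0.90 to -0.68 and that of Sema3d -0.62, and neither gene was called (adjusted p = 0.224 or more).

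**Figure D2:**
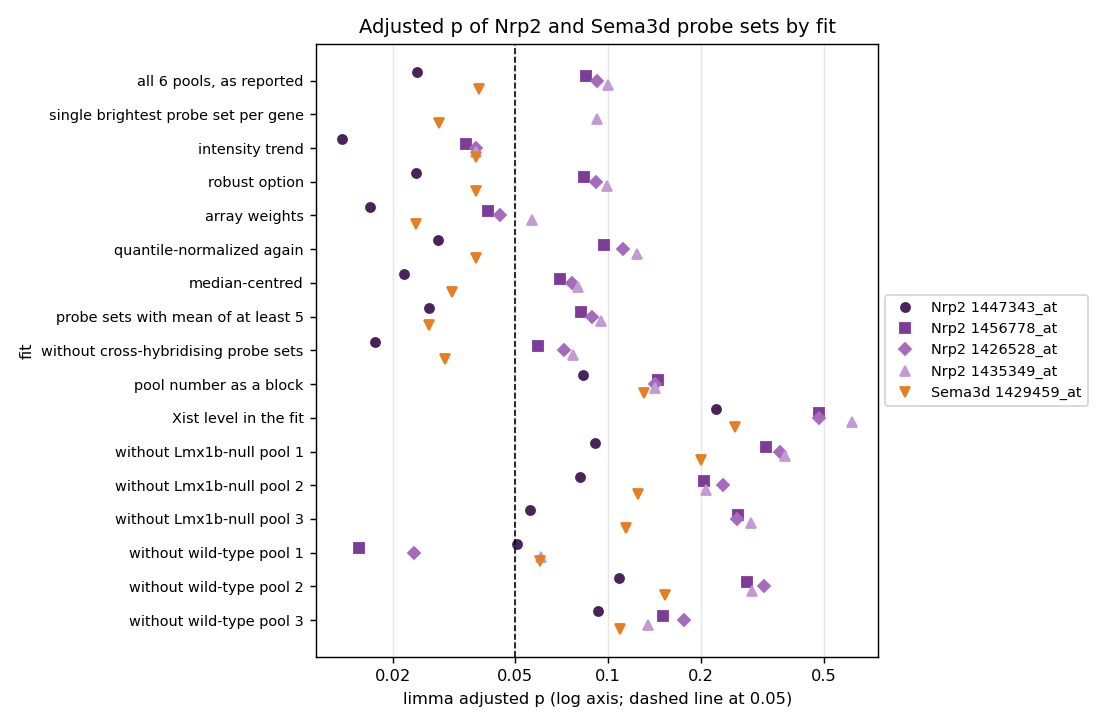
Limma adjusted p (log axis, dashed line at the threshold of 0.05) of the 4 Nrp2 probe sets and Sema3d 1429459_at in each fit, from all 6 pools at the top to the fits without 1 pool at the bottom. Points left of the line are called: 2 with all 6 pools, 5 with an intensity trend, and 0 with the pool number as a block or with Xist in the fit. The fit named as without cross-hybridising probe sets left out every probe set with an added letter in the suffix, such as _a_at or _x_at.

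Nrp1, the neuropilin bound by SEMA3A and by VEGF-A, showed no such shift. Its brightest probe set, 1448943_at, read 8.94, 8.96 and 9.05 in null pools against 9.13, 8.96 and 8.99 in wild-type pools, a change of -0.04 (95% interval -0.21 to 0.13; limma adjusted p = 0.895). Probe sets 1418084_at and 1448944_at gave -0.04 and -0.03. Probe set 1457198_at gave -0.19, from 7.45, 7.44 and 7.56 in null pools against 8.05, 7.53 and 7.44 in wild-type pools, where wild-type pool 1 alone was high. All 4 overlapped between the groups.

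The 2 neuropilins were also compared within each array. The Nrp2 minus Nrp1 difference of their brightest probe sets was -0.26, -0.09 and -0.29 in null pools 1 to 3, against 0.16, 0.50 and 0.74 in wild-type pools 1 to 3, a shift of -0.68 between the group means. The pools did not overlap, and the exact two-sided permutation p was 0.1, the smallest that 3 against 3 allows. The same comparison of Sema3d with Sema3a, the other one made, gave -0.45, also without overlap and with an exact permutation p of 0.1. After Benjamini-Hochberg adjustment over these 2 comparisons both p stay at 0.1. Each comparison set a gene with a called probe set against a gene with none. The falls already described therefore enter again, and these p are no separate support for them.

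Of the plexin-A receptor probe sets, 7 of 8 were higher in sign in null pools (6 of 8 after median centring), and none was called. Among all 45037 probe sets, 24996 were higher in null pools without centring. The 8 probe sets read only 3 genes, with 4 of them for Plxna2, so they are not 8 separate results. At an unadjusted p under 0.05, 0 of the 8 passed limma's test, against 9.41% of all probe sets. The median change of the 8 was 0.14. Plxna1, a signalling partner for both neuropilins, read 8.40, 8.24 and 8.25 in null pools against 8.05, 8.25 and 8.20 in wild-type pools in its bright probe set 1428623_at (change 0.13, 95% interval -0.06 to 0.31; limma adjusted p = 0.661). Its dim probe set 1421232_at gave 0.15, with null pools at 4.90 to 5.15 and wild-type pools at 4.78 to 4.86.

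Plxna2 had changes of 0.00 to 0.18 in its 4 probe sets, of which the smallest, 1451753_at, turned to -0.01 after median centring. The smallest p belonged to 1455037_at, at 6.43, 6.39 and 6.37 in null pools against 6.17, 6.35 and 6.21 in wild-type pools, without overlap (change 0.15, 95% interval -0.01 to 0.31; limma adjusted p = 0.557). Plxna4, the main plexin-A partner of Nrp1 in sensory axons, gave 0.10 in 1441371_at and -0.30 in the dimmer 1457840_at (4.02, 3.83 and 4.15 in null pools against 4.19, 4.11 and 4.60 in wild-type pools; adjusted p = 0.546). Its probe sets disagree in sign, and neither passed.

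**Figure D3:**
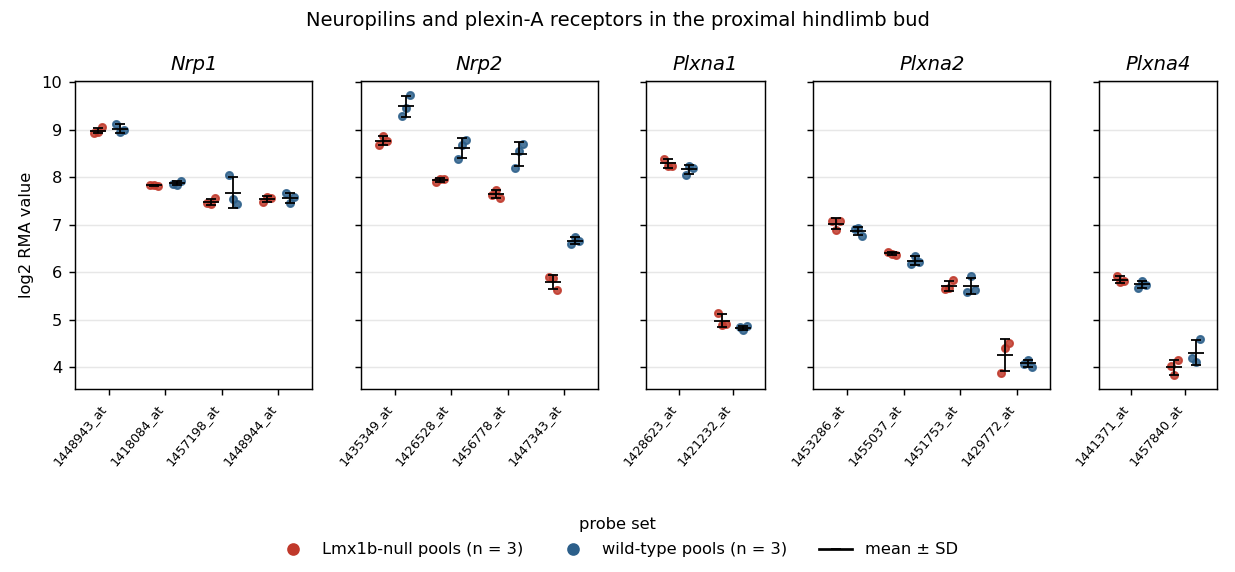
Log2 RMA values of the 16 probe sets of the neuropilin and plexin-A genes, drawn with Lmx1b-null pools left and wild-type pools right (n = 3 each; mean with SD in black). The null pools of all 4 Nrp2 probe sets lie below their wild-type pools, while those of Nrp1 overlap.

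**Figure D4:**
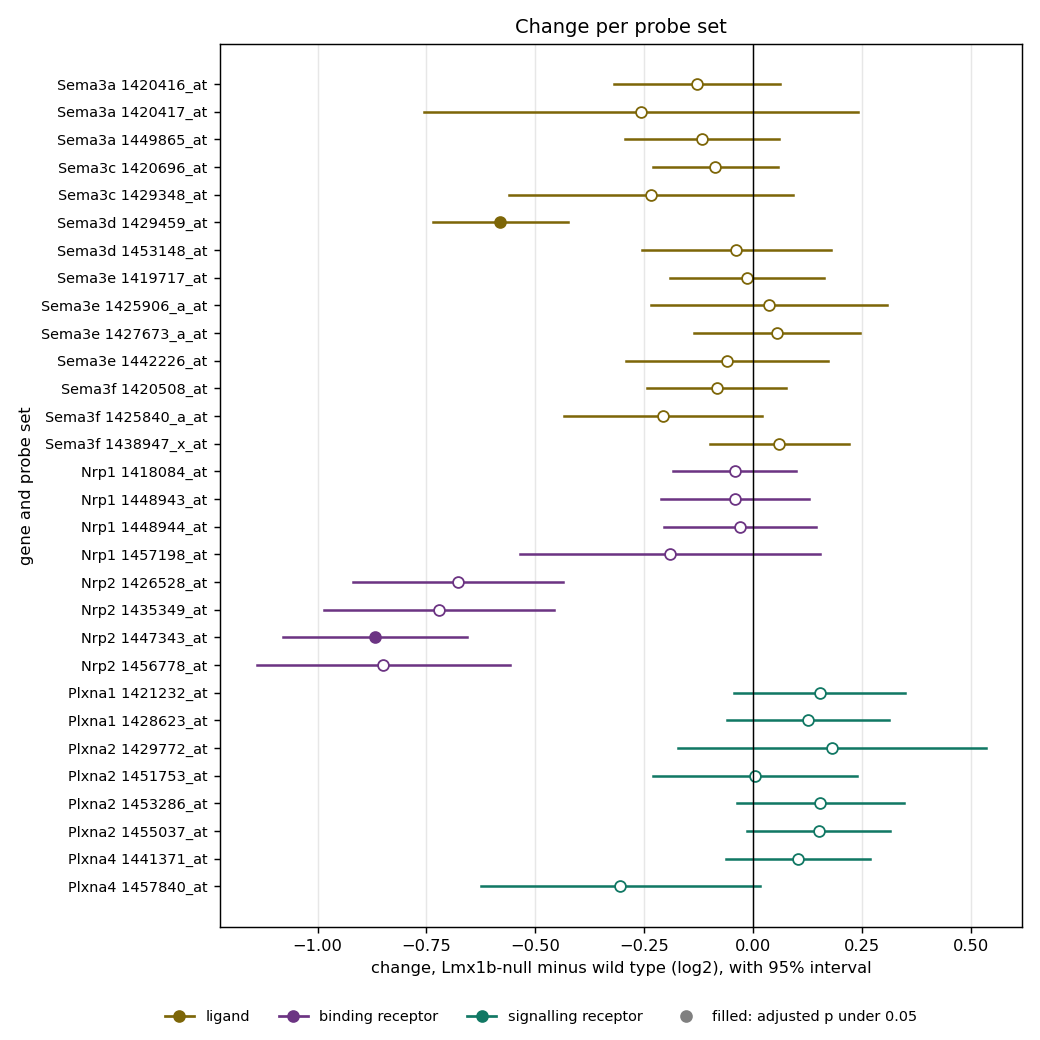
Change of each of the 30 probe sets (log2, null mean minus wild-type mean) with its 95% interval, coloured by role and filled where the limma adjusted p was under 0.05. Nrp2 spans -0.87 to -0.68, Nrp1 -0.19 to -0.03 and the plexin-A genes -0.30 to 0.18.

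Nrp2 lies on chromosome 1, and none of the 5 measured genes on each side of it in RefSeq order was called in the fit per gene. Their changes ran from -0.07 to 0.23. An unadjusted limma p under 0.05 was found for 2 of the 10, Cd28 and Icos, against 9.80% of all genes. Both were higher in null pools. Ino80d, the next measured gene after Nrp2 and a chromatin remodelling subunit gene, was at 7.36 in null and 7.33 in wild-type pools (change 0.03, 95% interval -0.11 to 0.16). Cd28, Ctla4, Pard3bos1, Ino80dos and Gpr1 lay under the lower quartile of the arrays.

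**Figure D5:**
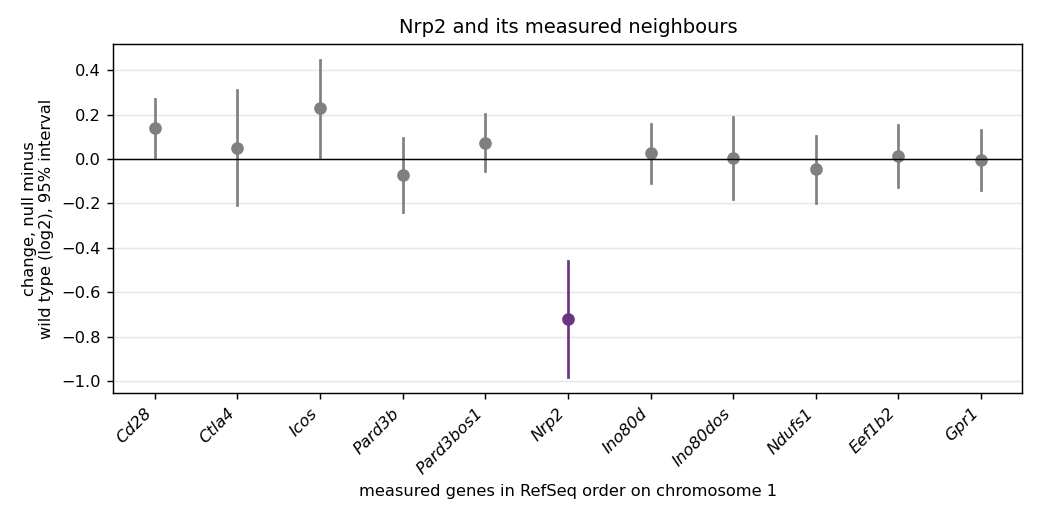
Change (log2, Lmx1b-null minus wild type) with its 95% interval for Nrp2 and the 5 measured genes on each side of it on chromosome 1, each by its brightest probe set. Nrp2 stands at -0.72 and its neighbours between -0.07 and 0.23.

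The patterns most like that of Nrp2 1447343_at over the 6 pools were sought among named probe sets with a mean of at least 5, by the mean absolute difference between values centred on their own mean. The closest 5 genes were Pip4k2a, a phosphoinositide kinase gene (0.09), the proximal limb homeobox gene Shox2 (0.10), the ephrin receptor gene Epha7 (0.11), the dystrophin gene Dmd (0.11) and Cpq (0.11). Their changes ran from -0.80 to -0.66, and Shox2 1438042_at and Epha7 1451991_at were called (limma adjusted p = 0.0238 and 0.0201). A fall of like size follows from how the 5 genes were picked, so these values are no separate support for that of Nrp2. Epha7, which like Nrp2 encodes a receptor for repellent cues, read 7.73, 7.72 and 7.72 in null pools against 8.56, 8.51 and 8.35 in wild-type pools.

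The rest of the pathway gave no call. Of 48 further pathway genes listed, 47 were measured and 0 were called by limma, with 5 at an unadjusted p under 0.05, against 9.80% of all genes. Their median change was 0.00, and 0.02 over all genes. The remaining class 3 and plexin-A genes had changes of 0.11 (Sema3b), -0.19 (Sema3g) and 0.02 (Plxna3, another partner of Nrp2). Of the 6 co-receptor genes, the smallest p belonged to the adhesion molecule genes Cntn2 (0.13) and Nrcam (0.12) and to Plxnd1, the SEMA3E receptor (-0.09), with adjusted p of 0.607 to 0.725. The adhesion molecule gene L1cam, a co-receptor for Nrp1, gave -0.01. Among 25 mediators inside the cell, the smallest p belonged to Limk1, the cofilin kinase (0.20, unadjusted p = 0.0375), Cdk5r1, the activator of CDK5 (0.18) and Crmp1, a collapsin response mediator gene (-0.14), with adjusted p of 0.48 to 0.547.

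Of the VEGF ligands and receptors, which share the neuropilins, 6 of 7 were lower in sign, against 7824 of all 18193 genes. An unadjusted limma p under 0.05 was found for 2 of the 7, against 9.80% of all genes. The sign count includes 2 genes that were almost level: Vegfb, at 8.33 in both groups, and Flt4, with a change of -0.01. Vegfa gave -0.33, with wild-type pool 3 at 8.51 and wild-type pools 1 and 2 at 7.40 and 7.63. Vegfc, a VEGF that uses Nrp2 on lymphatic vessels, was at 6.20 ± 0.08 in null and 6.45 ± 0.08 in wild-type pools (change -0.25; limma adjusted p = 0.338). Kdr gave -0.22 (adjusted p = 0.496). Flt1 read 5.54, 5.43 and 5.59 in null pools against 5.62, 5.69 and 6.56 in wild-type pools (change -0.44, adjusted p = 0.569), so wild-type pool 3 stood far above the rest. The mean level over the 7 genes was 6.79 to 6.87 in null pools, and 6.84, 6.89 and 7.27 in wild-type pools 1 to 3. Of the 6 protease genes listed with the pathway, Adam17 (-0.21) and Mmp14 (-0.21) had an unadjusted limma p under 0.05 (adjusted p = 0.387 and 0.425). Both encode surface proteases. Adam10, another surface protease gene, gave -0.10 (adjusted p = 0.658). Furin, the convertase that activates class 3 semaphorins, gave 0.11.

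Markers of other cell types that the buds could hold were read beside these genes, and none was called by limma. Among all 18193 genes 7824 were lower in sign and 10369 higher. All 8 endothelial markers were lower in sign in null pools, with a mean log2 level over the list of 6.71 to 6.73 in null and 6.83 to 6.99 in wild-type pools and a median change of -0.18. Tek was at -0.65 (limma adjusted p = 0.0849), Pecam1 at -0.19 and Cdh5 at -0.06, and Nrp1, which endothelium also carries, at -0.04. Of 12 neuron markers 8 were higher in sign, with a mean level of 4.57 to 4.61 in null and 4.37 to 4.54 in wild-type pools, and 4 of them (Chat, Slc18a3, Pou4f1 and Mnx1) lay near the floor. Of 8 muscle precursor markers 6 were higher in sign, at 6.82 to 6.97 in null and 6.34 to 6.81 in wild-type pools. All 6 measured markers of Schwann cell precursors and neural crest, which carry neuropilins as they migrate, were higher in sign, at 5.58 to 5.84 in null and 5.26 to 5.81 in wild-type pools. Of 8 surface ectoderm markers 7 were higher in sign, and of 6 macrophage and 4 erythroid markers 3 each. An unadjusted p under 0.05 was found for 3 endothelial, 1 neuron, 2 muscle, 1 Schwann cell and 3 ectoderm markers, against 9.80% of all genes. Wild-type pool 1 was the lowest of all 6 pools in the muscle, neuron, Schwann cell and ectoderm means, at 6.34, 4.37, 5.26 and 6.46, with the other wild-type pools at 6.71 and 6.81, 4.54 and 4.54, 5.56 and 5.81, and 6.72 and 6.73. The same pool was the lowest wild-type pool in all 4 Nrp2 probe sets. It was also the lowest wild-type pool in Sema3d 1429459_at (5.69, 5.77 and 5.75 in wild-type pools 1 to 3). The part of these cell types in the values of Nrp2 and Sema3d was not tested.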

How the data were processed

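Biotin-labelled cRNA of each pool was hybridised to 1 array, per the labels' protocols. The log2 values deposited by the authors, 1 for each probe set on each array, came from RMA (per the submitters' processing notes, without a version), and the base of the logarithm was inferred from the range of values. RMA normalizes between arrays, so a shift of most transcripts in a group would not be seen, and it compresses differences near the floor. Of 45101 probe sets 64 controls were left out. Genes were named from the platform annotation. Promoter windows, chromosomes and gene order came from RefSeq tables of GRCm38.p6.

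The fits used limma 3.58.1 under R 4.3.3 (lmFit and eBayes, without trend or robust option), two-sided, with Benjamini-Hochberg adjustment over all 45037 probe sets. A second fit used the brightest probe set of each of 18193 genes. The scripts were tested on simulated data in which 200 of 45037 probe sets were changed by known amounts. Of changes of 0.5, 37.3% were called in the right direction, and of changes of 1, 93.4%. A probe set with no call may therefore still have changed moderately. The labels name separate pools of embryos, treated as replicates; precision is limited by 3 arrays a group.

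The members and gene lists were chosen with earlier results of these data known. Named were all member probe sets and the 3 pathway genes of each list with the smallest p. For the member probe set with the smallest p, the 5 genes most like it and its 5 neighbours on each side were also named. L1cam, Furin, Vegfa, Vegfb, Flt4 and single markers were named after their values were seen. The labels do not say that the pool numbers mark a shared litter or day, so the main fit used no block. Same-numbered pools deviated from their group means with correlations of -0.24, -0.09 and -0.17. With 3 pools a group these cannot settle whether the pools were paired.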

Additional observations from a re-analysis of the deposited data

How the results depend on the processing

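Against 2 called member probe sets with all 6 pools, limma called 5 with an intensity trend, 4 with array weights, 4 at an adjusted p under 0.1, 1 of 10 with a single probe set per gene, 0 with the pool number as a replicate block and 0 with Xist as a covariate, the last chosen after seeing the data. Leaving out 1 pool gave 0 to 2: 2 without wild-type pool 1 and 0 without any other pool. All probe sets called numbered 38, against 94 with the trend, 69 with array weights and 99 at 0.1. There were 57 after dropping probe sets with an added letter in the suffix, such as _a_at, _s_at or _x_at. The number was 20 among probe sets with a mean of at least 5, 14 with the block, 9 with Xist and 13 to 38 with 1 pool left out. The cause of these differences was not tested. The robust option, repeated quantile normalization, median centring, the filter at 5 and the filter on the suffix kept the count at 2. No member outside Nrp2 and Sema3d 1429459_at was called under any alternative, 0 pathway genes were called under any, and 22 of the 30 probe sets kept their direction in all. The other 8, none called, turned direction in some. Without 1 pool, Sema3d 1453148_at ranged from -0.128 to 0.0355, Sema3e 1419717_at from -0.0640 to 0.0361, 1425906_a_at from -0.0756 to 0.125, 1427673_a_at from -0.00606 to 0.128 and 1442226_at from -0.120 to 0.0460. Nrp1 1448943_at ranged from -0.0763 to 0.00949, Nrp1 1448944_at from -0.0844 to 0.0152 and Plxna2 1451753_at from -0.0589 to 0.105. With Xist as a covariate, the changes were -0.0254 for Sema3e 1425906_a_at, -0.0799 for 1427673_a_at, 0.00545 for Nrp1 1448943_at, 0.0699 for 1448944_at and -0.211 for Plxna2 1451753_at, which was at -0.0637 with array weights and -0.0123 after median centring.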

Other observations

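A pair of nerve-associated markers had the largest changes of the neuron and the Schwann cell lists. Nefl, the light neurofilament gene of axons, read 5.47, 5.26 and 5.62 in null pools against 3.97, 4.80 and 4.69 in wild-type pools (change 0.96, SE 0.21; limma adjusted p = 0.22). Ngfr, the neurotrophin receptor gene p75, known from neural crest, Schwann cell precursors and sensory axons, read 7.31, 7.12 and 7.35 in null pools against 6.53, 7.02 and 6.81 in wild-type pools (change 0.47, SE 0.13; adjusted p = 0.316). Neither passed, and both were chosen for naming after their values were seen. The motor neuron factor gene Isl1, also known from hindlimb mesenchyme, gave 0.14 and the axonal tubulin gene Tubb3 0.13. Of the 12 neuron markers measured, 4 went the other way: Mnx1 (-0.32), Chat (-0.05), Prph (-0.05) and Pou4f1 (-0.02).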
